A study of Mus musculus with 12 samples.

Results

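A set of 10 genes that govern how pyruvate enters mitochondrial metabolism were followed in 4T1 cells, a mouse mammary carcinoma line. They were taken by symbol from the gene table as the pyruvate carrier (Mpc1, Mpc2), the catalytic E1 subunits of the pyruvate dehydrogenase (PDH) complex (Pdha1, Pdhb), the kinases and phosphatase that act on it (Pdk1, Pdk2, Pdk3, Pdp1), pyruvate carboxylase (Pcx) and the mitochondrial phosphoenolpyruvate carboxykinase (Pck2). All 10 symbols were found among the 20587 genes of the table, and all 10 were among the 11663 protein-coding genes tested. RNA-Seq was done on 4 groups of 3 libraries, taken at 24 h from one experiment in biological triplicate. IR -SG cells were cultured without serine and glycine and given 5 Gy of X-ray radiation, -SG cells were starved of both amino acids and given 0 Gy, IR cells were irradiated with 5 Gy in medium holding both, and Ctr cells had that medium and 0 Gy. Every group shared a formulated base medium with glutamine, glucose and dialysed serum, according to the methods of the study, whereas the growth label names RPMI. All libraries come from 1 cell line, so the p-values measure the spread between replicate cultures of that line only.

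Pyruvate made by glycolysis crosses the inner mitochondrial membrane through a carrier built of MPC1 and MPC2. In the matrix the PDH complex converts it to acetyl-CoA, and this step is switched off when PDH kinases phosphorylate the E1 alpha subunit and on again when PDH phosphatases remove the phosphate. Pyruvate carboxylase instead turns pyruvate into oxaloacetate, which refills the TCA cycle, and PCK2 turns mitochondrial oxaloacetate into phosphoenolpyruvate, which can feed serine and glycine synthesis. ATF4, a transcription factor induced by amino acid shortage, is known to activate Pck2.

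Pck2 and Pdk2 were the members with the largest changes, so the bases upstream of their start sites are shown, 5′ to 3′ on the gene's strand, from RefSeq on GRCm38.p6. The Pck2 stretch is chr14:55540016-55540265 (plus strand), and the Pdk2 stretch is chr11:95041372-95041621 (minus strand). The table lists 2 start sites for Pdk2. The stretch of the site farther upstream is printed because it held a motif match, while that of the other (chr11:95040876-95041125) held none. Capitals mark matches, on either strand, to the 3 motifs searched.

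Pck2: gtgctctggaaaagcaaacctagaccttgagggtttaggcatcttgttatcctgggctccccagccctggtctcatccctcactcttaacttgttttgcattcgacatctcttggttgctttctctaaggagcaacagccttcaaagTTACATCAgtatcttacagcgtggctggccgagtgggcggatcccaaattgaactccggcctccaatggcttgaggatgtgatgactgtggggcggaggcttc

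Pdk2: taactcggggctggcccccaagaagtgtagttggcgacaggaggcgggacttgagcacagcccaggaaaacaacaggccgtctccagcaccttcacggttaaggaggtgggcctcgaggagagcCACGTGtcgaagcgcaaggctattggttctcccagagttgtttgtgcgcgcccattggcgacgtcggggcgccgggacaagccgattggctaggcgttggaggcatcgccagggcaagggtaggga

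The Pck2 match is TGATGNAA, the core of the C/EBP-ATF response element, read on the opposite strand and lying 103 to 96 bases before the start. The 9 member genes that had a promoter in the table had 13 promoter windows. The Pck2 motif was held by 1 of these 13, against 3.97% of the 32851 promoter windows. The windows searched ran over the 250 bases before the start and 50 after it, whereas the stretches printed are the 250 before it. The Pdk2 match is ACGTG, the core of the hypoxia response element, which occurred on both strands in overlapping positions. ACGTG was also found in the windows of Pcx, Pdhb and Pdk3 and in 19.6% of all windows. TGACNNNGC, the antioxidant response element core, was found in Mpc1 and Pdhb and in 12.4% of all windows. The Pdhb match to TGACNNNGC reached over the start itself and was thus not within the 250 bases before it. In those 250 bases alone the 3 motifs occurred in 3.45%, 16.6% and 10.2% of promoters, in the order given here. These matches are descriptions of letters in a window.

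Libraries held 12540160 to 20066659 reads in genes, and values are given as normalized read counts, that is, reads divided by 1 size factor for each library. Epithelial markers were abundant except for Krt5. Their summed count over 8 genes was 69538 to 71422 in IR -SG and 72385 to 79451 in -SG libraries. It was 51519 to 52812 in IR and 48705 to 49183 in Ctr libraries. Krt5 had at most 2.97 in IR -SG, 3.99 in -SG and 3.15 in IR, and 2.13 to 65.9 in Ctr libraries. Ctr replicates 1 and 3 also held low levels of transcripts of other cell types. The 3 leukocyte markers in the table summed to 0.899 to 3.93 in IR -SG, 2.14 to 3.99 in -SG, 5.62 to 11.9 in IR and 3.19 to 87.1 in Ctr libraries, and Lyz2 made up most of the Ctr value. The 5 fibroblast markers summed to 400.4 to 455 in IR -SG, 248 to 323 in -SG, 479 to 517 in IR and 199.8 to 366 in Ctr libraries, most of it Pdgfra. The 2 endothelial markers summed to at most 16.8. The part of these transcripts in the results was not tested. Ctr replicate 2 was also used as the only Ctr library, a setting added after the data were seen. Values from it are given below for single members. In that setting the spread came from the other groups, so the lone library was assumed to vary as they did. The library -SG replicate 6 stood apart from its group, with a chi-square per gene of 7.61 and 12 against the other -SG libraries, where all other replicate pairs lay between 1.5 and 3.27.

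Changes were tested by limma over all 11663 genes with Benjamini-Hochberg adjustment and a threshold of 0.05, and log2 fold changes are on the log2(normalized count + 1) scale. In -SG against Ctr, 5 members rose (Pdhb, Pdk1, Pdk2, Pcx and Pck2) and 1 fell (Pdk3), where 58.6% of all tested genes were called. In IR against Ctr, 3 rose (Mpc2, Pdk2 and Pcx) and 3 fell (Pdk1, Pdk3 and Pck2), with a background of 53.7%. In IR -SG against Ctr, 5 rose (Pdhb, Pdk1, Pdk2, Pcx and Pck2) and 2 fell (Pdk3 and Pdp1), with a background of 69.7%. The share of members called was thus near that of all genes in each comparison. The median log2 fold change of the 10 members was 0.16 in IR -SG, 0.18 in -SG and -0.01 in IR, beside 0.03, 0.01 and 0.00 over all tested genes in the same order. Within the list Pdk2 and Pck2 had the largest changes, and Pdha1 and Mpc1 were called in none of the 6 comparisons. All 3 comparisons used the same Ctr libraries.

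**Figure D1:**
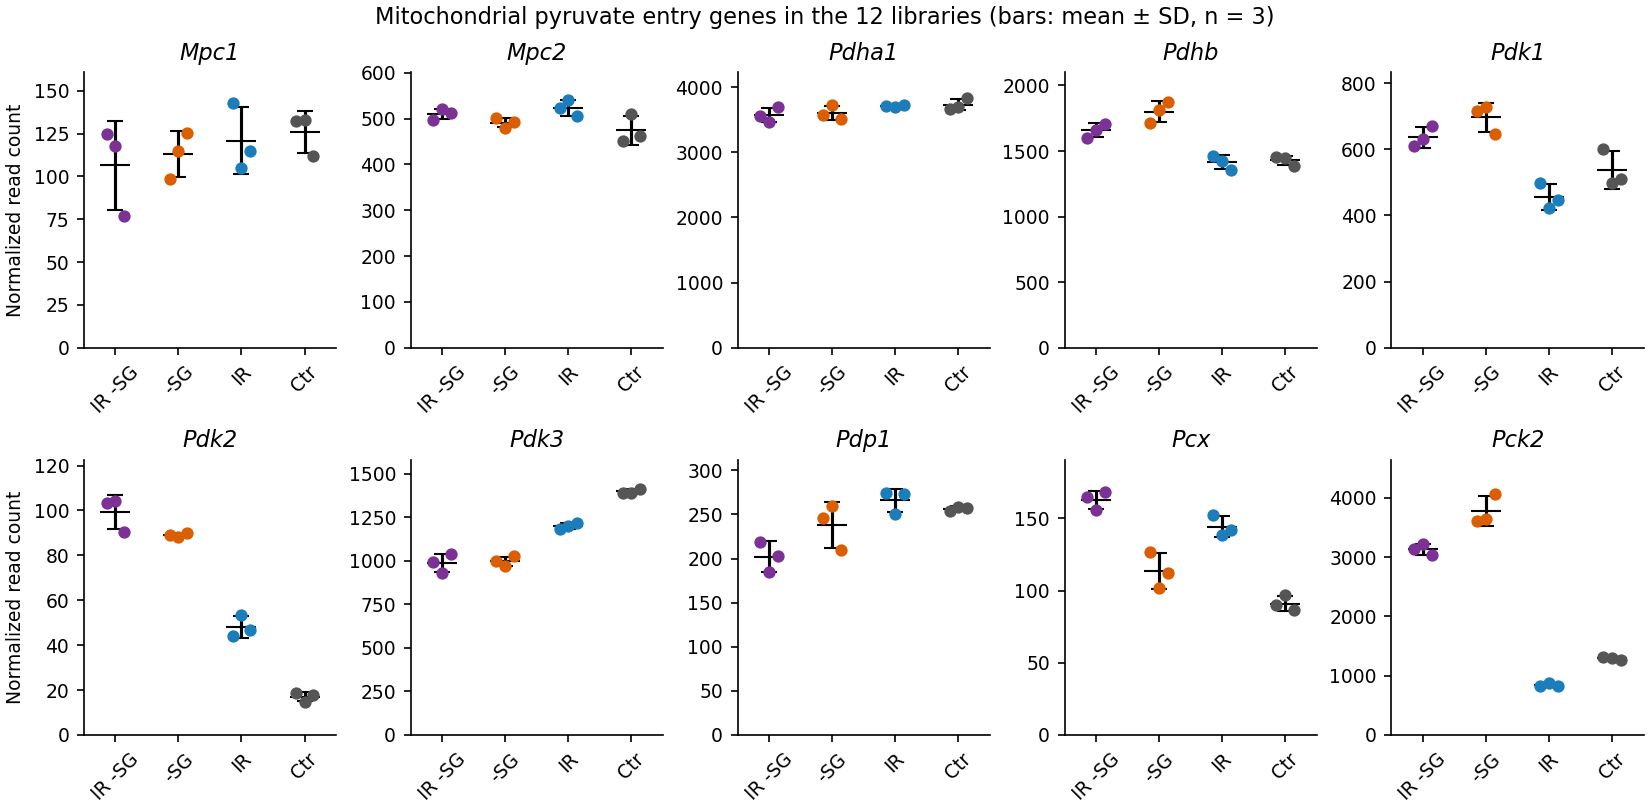
Normalized read counts (vertical axes, starting at 0) of the 10 pyruvate entry genes in the 12 libraries, with one panel for each gene, points for libraries, and bars for the mean ± SD of 3 libraries. Pck2 was highest in the 2 groups without serine and glycine and lowest in IR, Pdk2 was lowest in Ctr, and Pdha1 lay between 3469.8 and 3826 in all libraries.

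Mpc2 (chr1:165460637-165481214) had 498, 520.3 and 511 normalized counts in IR -SG libraries, 502, 480.5 and 492 in -SG libraries, 522, 542 and 505 in IR libraries, and 450.3, 510.2 and 462 in Ctr libraries. The highest Ctr library lay above the lowest library of every other group. Mpc2 rose by 0.14 in IR against Ctr (SE 0.06, adjusted p = 0.0465), and this call was lost in 18 of 29 alternatives, among them leaving out Ctr replicate 1 (0.11, adjusted p = 0.181), Ctr replicate 3 (0.12, 0.135), IR replicate 1 (0.14, 0.0871) or IR replicate 2 (0.12, 0.154). Its log2 fold change was 0.11 in IR -SG and 0.05 in -SG against Ctr, and neither passed the test. The value in IR -SG passed in 2 alternatives, with libraries brought to one total (0.16, adjusted p = 0.0235) and without Ctr replicate 2 (0.16, adjusted p = 0.0267), and leaving out 1 library gave 0.07 to 0.16.

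Mpc1 (chr17:8282904-8297661) had 125, 118 and 76.7 normalized counts in IR -SG libraries, 98.5, 115 and 125 in -SG libraries, 143, 105 and 115 in IR libraries, and 133, 133 and 112 in Ctr libraries. All groups overlapped, and no comparison of Mpc1 passed the test. In IR -SG against Ctr its log2 fold change was -0.26, and it passed with quantile normalization (-0.52, adjusted p = 0.0123). Leaving out 1 library gave -0.39 to -0.05 there, the last without IR -SG replicate 6. The 95% interval of the log2 fold change was -0.62 to 0.09 in IR -SG, -0.51 to 0.19 in -SG and -0.42 to 0.29 in IR against Ctr. The count of Mpc1 is uncertain, because its processed pseudogene Mpc1-ps on chromosome 12 had more counts than the gene itself, at 142 ± 12.9 in IR -SG, 162 ± 14.1 in -SG, 163 ± 9.51 in IR and 155 ± 7.10 in Ctr (SD, n = 3 each), and reads of near-identical copies can be split between them. Summed over both, the counts were 249 ± 16 in IR -SG, 275 ± 6.16 in -SG, 284 ± 14.4 in IR and 281 ± 18.7 in Ctr.

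The E1 subunits, which form a tetramer of PDHA1 and PDHB, differed in response. Pdha1 (chrX:160122209-160138413), the alpha subunit that carries the regulatory phosphorylation sites, had 3555, 3469.8 and 3694 normalized counts in IR -SG libraries, 3573, 3719.8 and 3511 in -SG libraries, 3707, 3702 and 3730.3 in IR libraries, and 3668, 3702 and 3826 in Ctr libraries. Its log2 fold change was -0.06 in IR -SG, -0.05 in -SG and -0.01 in IR against Ctr, with 95% intervals of -0.14 to 0.01, -0.13 to 0.02 and -0.08 to 0.07. None of the 3 passed the test. Map3k15, on the opposite strand, shares 603 exon bases with Pdha1 but had at most 4.20 counts.

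Pdhb (chr14:8165996-8173025), the beta subunit, had 1602, 1663 and 1709.5 normalized counts in IR -SG libraries, 1713, 1815 and 1876 in -SG libraries, 1459, 1428 and 1358 in IR libraries, and 1453, 1446 and 1385 in Ctr libraries. Every library without serine and glycine lay above every library with them. Pdhb rose by 0.33 in -SG against Ctr (SE 0.04, adjusted p = 8.39e-06), by 0.22 in IR -SG against Ctr (adjusted p = 4.59e-04) and by 0.23 in IR -SG against IR (adjusted p = 3.97e-04). Radiation alone left it at -0.01 (95% interval -0.11 to 0.08). In starved cells radiation lowered it by a log2 fold change of -0.12 (adjusted p = 0.0421), a call lost in 12 of 29 alternatives, with adjusted p-values up to 0.163 (without IR -SG replicate 4), 0.0985 without -SG replicate 6, 0.0871 without -SG replicate 5 and 0.0862 without IR -SG replicate 5. The ratio of Pdhb to Pdha1 counts within a library was 0.464 ± 0.0145 in IR -SG and 0.501 ± 0.0295 in -SG, against 0.381 ± 0.0153 in IR and 0.383 ± 0.0183 in Ctr.

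The 3 PDH kinase genes went in different directions under starvation. Pdk2 (chr11:95026258-95041354), which encodes a kinase of broad tissue expression, had 103, 104 and 90.5 normalized counts in IR -SG libraries, 89.2, 88.3 and 89.8 in -SG libraries, 44.1, 53.4 and 46.6 in IR libraries, and 18.7, 14.9 and 17.6 in Ctr libraries. The groups formed separate steps, with Ctr lowest and IR between Ctr and both starved groups. Pdk2 rose 5.01-fold in -SG against Ctr (log2 fold change 2.32, SE 0.14, adjusted p = 4.36e-10), and only 60 of the tested genes rose more. The rise was 5.57-fold in IR -SG (2.48, adjusted p = 1.09e-10) and 2.72-fold in IR (1.44, adjusted p = 2.67e-07). In IR -SG against IR it rose by 1.03 (adjusted p = 8.01e-06), while in IR -SG against -SG the log2 fold change was 0.15 (95% interval -0.14 to 0.44, adjusted p = 0.389). With Ctr replicate 2 as the only Ctr library these changes were 2.66 in IR -SG, 2.50 in -SG and 1.62 in IR. The smallest value in IR over all alternatives was 0.90, with quantile normalization (adjusted p = 4.54e-05).

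Pdk1 (chr2:71873224-71903858), the kinase known as a target of hypoxia-inducible factor, had 608, 630.3 and 669.8 normalized counts in IR -SG libraries, 715, 729 and 647 in -SG libraries, 499, 423 and 446 in IR libraries, and 602, 497 and 509 in Ctr libraries. Both starved groups lay above both fed groups, and IR replicate 1 (499) lay just above the lowest Ctr library, replicate 2 (497). Pdk1 rose by 0.38 in -SG against Ctr (SE 0.08, adjusted p = 5.85e-04), by 0.25 in IR -SG against Ctr (adjusted p = 0.00959) and by 0.48 in IR -SG against IR (adjusted p = 7.13e-05). The second of these was lost without Ctr replicate 2 (0.20, adjusted p = 0.0551). It fell in IR against Ctr, with a log2 fold change of -0.23 (adjusted p = 0.0207). That call rested on single libraries and was lost without Ctr replicate 1 (-0.15, adjusted p = 0.133), IR replicate 2 (-0.18, 0.0972) or IR replicate 3 (-0.22, 0.0643), and with Ctr replicate 2 as the only Ctr library (-0.13, 0.353).

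Pdk3 (chrX:93764607-93832201) had 995, 932 and 1037 normalized counts in IR -SG libraries, 997, 973 and 1025 in -SG libraries, 1185, 1202 and 1216 in IR libraries, and 1388, 1391 and 1414 in Ctr libraries. Ctr was highest, IR intermediate, and the starved groups lay together at the bottom. Pdk3, which encodes a PDH kinase of high activity, fell against Ctr by 0.50 in IR -SG (SE 0.04, adjusted p = 3.88e-08), by 0.49 in -SG (adjusted p = 1.03e-07) and by 0.22 in IR (adjusted p = 6.16e-04), and by 0.28 in IR -SG against IR (adjusted p = 4.9e-05). In IR -SG against -SG its log2 fold change was -0.02 (95% interval -0.11 to 0.08).

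**Figure D2:**
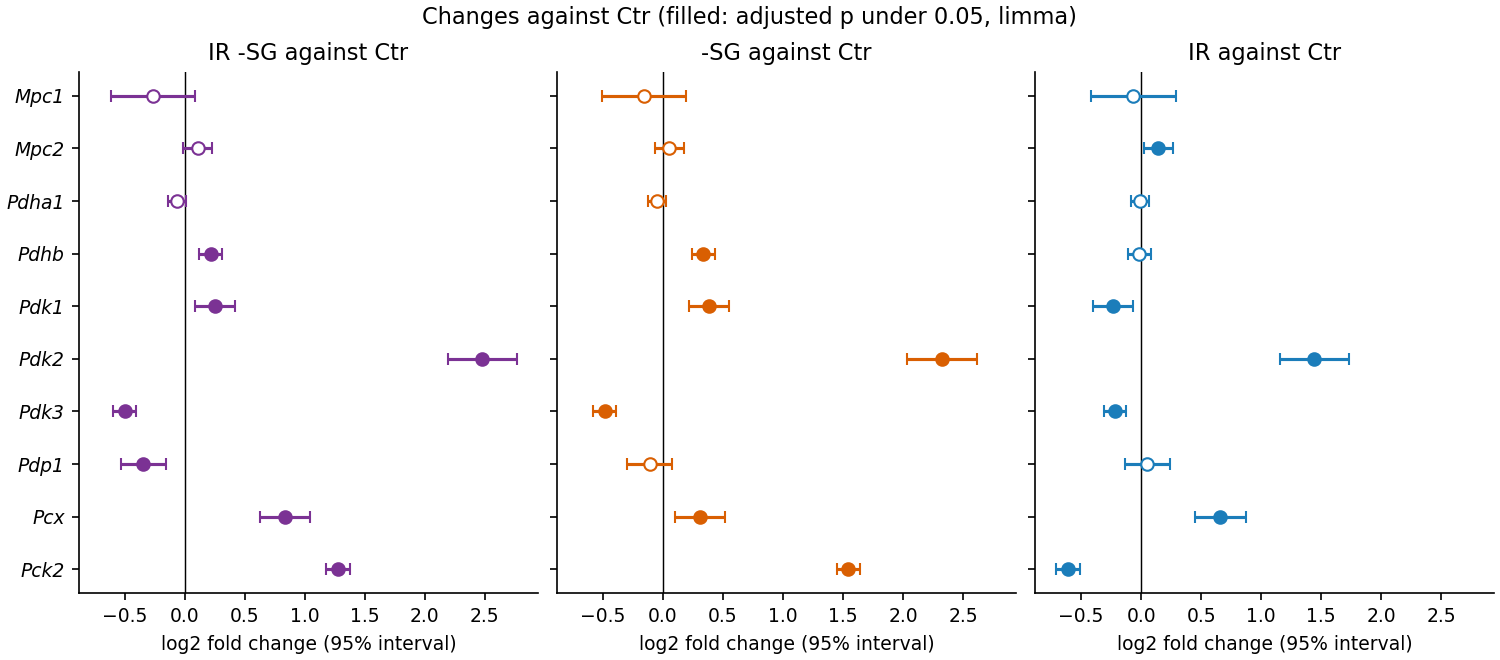
The log2 fold changes of the 10 genes against Ctr (horizontal axis), with 95% intervals from limma, in IR -SG, -SG and IR cells, where filled points passed an adjusted p of 0.05. Pdk2 rose in all 3 panels (2.48, 2.32 and 1.44), Pdk3 fell in all 3, and Pck2 rose in both starved groups (1.28 and 1.54) and fell in IR (-0.61).

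Per kilobase of exon, Pdk3 was the most abundant of the 3 kinase transcripts in every group. It made up 77.3% ± 0.987 of their sum in IR -SG, 76.8% ± 1.27 in -SG, 86.4% ± 0.729 in IR and 88.0% ± 1.16 in Ctr libraries (SD, n = 3 each). Pdk2 stayed the least abundant, with 6.31% ± 0.719 in IR -SG, 5.55% ± 0.0156 in -SG, 2.80% ± 0.286 in IR and 0.869% ± 0.0904 in Ctr. The sum of the 3 was 499 ± 20.9 counts per kb in IR -SG, 508 ± 5.45 in -SG and 543 ± 3.62 in IR, against 620.1 ± 7.18 in Ctr, where the libraries of each treated group lay below all Ctr libraries. These sums leave out Pdk4, the starvation-induced kinase of muscle and liver, for which the table has no values.

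Pdp1 (chr4:11958184-11966452), the calcium-stimulated PDH phosphatase, had 219, 184 and 203 normalized counts in IR -SG libraries, 246, 259.8 and 209 in -SG libraries, 274, 251 and 273 in IR libraries, and 254, 258 and 258 in Ctr libraries. The IR -SG libraries were the lowest, apart from an overlap with -SG replicate 6. Pdp1 fell in IR -SG against Ctr (log2 fold change -0.35, SE 0.09, adjusted p = 0.0022) and in IR -SG against IR (-0.40, adjusted p = 0.00105). The fall in IR -SG against -SG (-0.24, adjusted p = 0.0395) was lost in 13 of 29 alternatives, with adjusted p-values of 0.171 without IR -SG replicate 5, 0.0769 without IR -SG replicate 6, 0.158 without -SG replicate 5 and 0.110 without -SG replicate 4. Neither single treatment passed the test, with -0.11 in -SG (95% interval -0.30 to 0.08) and 0.05 in IR (-0.13 to 0.24). With a correction for GC content the value in IR was 0.18 and passed (adjusted p = 0.036, or 0.0497 with the replicate block as well), and those in IR -SG were -0.19 against Ctr (adjusted p = 0.0235) and -0.15 against -SG (adjusted p = 0.0973).

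The other phosphatase gene, Pdp2, was described as part of the wider PDH list and had 409.8, 407 and 398 normalized counts in IR -SG libraries, 414, 419 and 360.2 in -SG libraries, 666, 674 and 610.3 in IR libraries, and 831, 773 and 767 in Ctr libraries. Against Ctr it fell by 0.96 in IR -SG (adjusted p = 1.31e-09), by 0.99 in -SG (adjusted p = 1.63e-09) and by 0.28 in IR (adjusted p = 0.0016). Pdp1 and Pdp2 together had 116 ± 4.20 counts per kb of exon in IR -SG and 123 ± 11.4 in -SG, against 173 ± 5.04 in IR and 196 ± 5.70 in Ctr. The ratio of kinase to phosphatase transcripts per kb was 4.30 ± 0.196 in IR -SG, 4.16 ± 0.444 in -SG, 3.14 ± 0.112 in IR and 3.17 ± 0.0773 in Ctr (SD, n = 3 each). All starved libraries had a higher ratio than all fed libraries, the highest being 4.66 in -SG replicate 6. With the length of the longest coding transcript in place of the exon length, the ratios were 5.32 in IR -SG, 5.13 in -SG, 3.82 in IR and 3.86 in Ctr. The ratios describe transcripts, and no test was run on them.

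**Figure D3:**
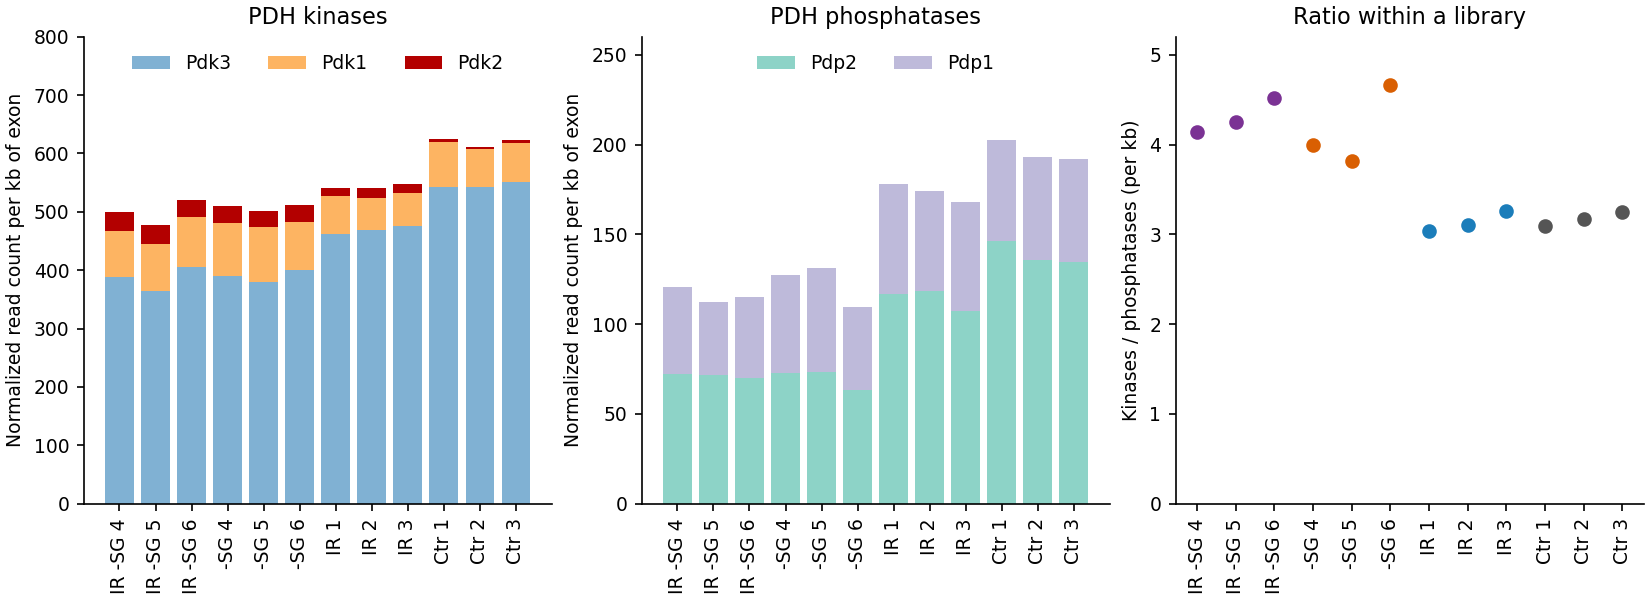
Normalized counts per kb of exon of the PDH kinase genes (left, stacked bars) and PDH phosphatase genes (middle, stacked bars) and the ratio of the 2 sums (right, points) in each of the 12 libraries. The kinase sum was highest in Ctr (620.1 on average), the phosphatase sum was lowest in the starved libraries (116 in IR -SG and 123 in -SG), and the ratio in starved libraries (3.82 to 4.66) lay above that in fed libraries (3.04 to 3.26).

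Pcx (chr19:4510472-4621752), which encodes pyruvate carboxylase, had 164, 156 and 168 normalized counts in IR -SG libraries, 126, 102 and 112 in -SG libraries, 152, 139 and 142 in IR libraries, and 89.9, 96.7 and 86.2 in Ctr libraries. The 4 groups did not overlap and were ordered IR -SG, IR, -SG and Ctr from high to low. Pcx rose by 0.66 in IR against Ctr (SE 0.10, adjusted p = 3.6e-05), by 0.83 in IR -SG against Ctr (adjusted p = 1.24e-06) and by 0.52 in IR -SG against -SG (adjusted p = 5.04e-04). With quantile normalization the value in IR against Ctr was 0.44 (adjusted p = 0.00119). In -SG against Ctr it rose by 0.31 (adjusted p = 0.0126), which was lost without -SG replicate 4 (0.23, adjusted p = 0.0712), with quantile normalization (0.14, 0.228), with DESeq2 (0.30, 0.0816) and with Ctr replicate 2 as the only Ctr library (0.22, 0.231). In IR -SG against IR the log2 fold change was 0.17 (95% interval -0.04 to 0.38) and did not pass. Lrfn4, with 1385 to 1928 counts, lies inside the Pcx gene on the opposite strand but shares no exon base with it.

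Pck2 (chr14:55540266-55551242) had 3146, 3217 and 3035 normalized counts in IR -SG libraries, 3608, 3652 and 4064 in -SG libraries, 834, 872 and 834 in IR libraries, and 1315, 1298 and 1265 in Ctr libraries. No groups overlapped, with -SG highest and IR lowest. Starvation raised Pck2 2.92-fold in unirradiated cells (log2 fold change 1.54, SE 0.05, adjusted p = 1.43e-13) and 3.70-fold in irradiated cells (IR -SG against IR, 1.89, adjusted p = 2.26e-14), and only 36 genes rose more in irradiated cells. Radiation lowered it in both media, by a log2 fold change of -0.61 in IR against Ctr (adjusted p = 1.97e-08, with 97 genes falling more) and -0.27 in IR -SG against -SG (adjusted p = 2.27e-04). The combined treatment was 1.28 above Ctr (adjusted p = 7.24e-13). These 5 calls held in every alternative. Pck2 thus went in opposite directions in the starved and the irradiated cells, while Pcx, the enzyme that makes its substrate from pyruvate, rose in both. The ratio of Pck2 to Pcx counts was 19.3 ± 1.32 in IR -SG, 33.6 ± 4.36 in -SG, 5.88 ± 0.407 in IR and 14.2 ± 0.711 in Ctr.

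Radiation was then compared between the media. Without serine and glycine (IR -SG against -SG), 1 member rose (Pcx) and 3 fell (Pdhb, Pdp1 and Pck2), where 43.1% of all genes were called (23.8% rose and 19.3% fell). Among irradiated cells (IR -SG against IR), 4 rose (Pdhb, Pdk1, Pdk2 and Pck2) and 2 fell (Pdk3 and Pdp1), where 57.1% were called (28.9% rose and 28.1% fell). The difference itself was tested as an interaction, the change after radiation in starved cells less that in fed cells, which called 3 of the 10 members and 11.4% of all genes (4.2% positive and 7.17% negative). For Pdk2 it was -1.29 (SE 0.19, adjusted p = 3.84e-04). Radiation added 10.2 normalized counts of Pdk2 on average in starved cells, against 31.0 in fed cells. For Pck2 it was 0.34 (SE 0.06, adjusted p = 0.00265), since radiation lowered it less in starved cells on the log2 scale, although the difference in counts was -642 there, against -446 in fed cells. For Pdk3 it was 0.20 (SE 0.06, adjusted p = 0.0484), and this call was lost in 20 of 28 alternatives, with adjusted p-values up to 0.249. It was lost on leaving out any of the libraries of Ctr or IR, -SG replicates 4 or 5, or IR -SG replicates 4 or 6, which gave 0.0737 to 0.118. For Pdp1 it was -0.29 and did not pass (adjusted p = 0.149), but it passed without -SG replicate 6 (-0.38, adjusted p = 0.0261) and with a correction for GC content (-0.33, adjusted p = 0.0313).

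**Figure D4:**
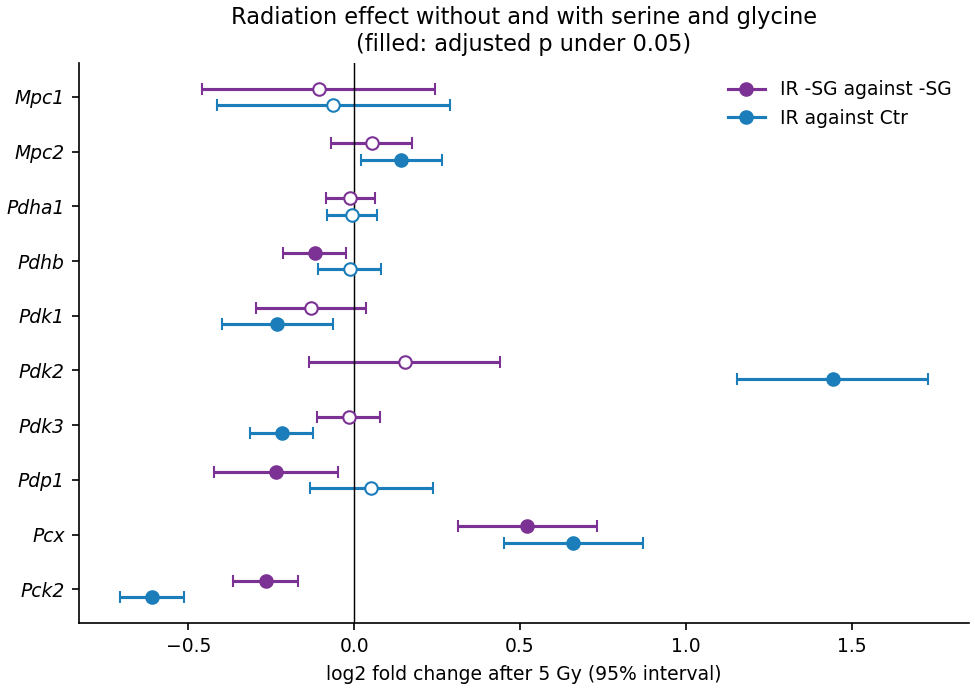
The log2 fold change after 5 Gy (horizontal axis, with 95% intervals) for each of the 10 genes in starved cells (IR -SG against -SG) and in fed cells (IR against Ctr), where filled points passed an adjusted p of 0.05. Pdk2 differed most (0.15 in starved and 1.44 in fed cells), Pck2 fell in both (-0.27 and -0.61), and Pcx rose in both (0.52 and 0.66).

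Levels of different genes were compared per kb of exon. In Ctr libraries Pdha1 was highest (999 ± 22.4 counts per kb), followed by Pdk3 (546 ± 5.37), Pdhb (369.9 ± 9.63) and Pck2 (166 ± 3.24). Pdk1 (68.9 ± 7.33), Mpc2 (64.6 ± 4.33), Mpc1 (60.4 ± 5.83) and Pdp1 (56.9 ± 0.561) lay so close that their libraries overlapped from one to the next. Pcx (19.1 ± 1.12) and Pdk2 (5.39 ± 0.620) were lowest. In -SG libraries Pck2 reached 484 ± 32.2, beside Pdhb at 467 ± 21.3 and Pdk3 at 389.8 ± 10.2, and the libraries of Pck2 and Pdhb overlapped. Parts of these orders hold for merged exons only. By transcript length Pdha1 (1310) was again highest in Ctr libraries, and Pcx (21.9) and Pdk2 (7.59) were again lowest. Per kb of the longest coding transcript, Pdhb (944) lay above Pdk3 (661) and Mpc2 (463) above Pck2 (279) in Ctr libraries, and in -SG libraries Pdhb (1132 to 1239.8) lay above Pck2 (780.04 to 879) with no overlap. Mpc2 moved most with the length used, since its merged exons span 7.344 kb and its longest coding transcript 1.025 kb.

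The partners of the E1 subunits were counted next. Of the 8 other PDH complex genes tested, 1 rose and 4 fell in IR -SG, 3 rose and 3 fell in -SG, and 0 rose and 2 fell in IR against Ctr. Over all tested genes 69.7%, 58.6% and 53.7% were called in the same order. Dlat, the E2 subunit, rose in -SG by 0.14 (adjusted p = 0.00223) and Dld, the E3 subunit, by 0.25 (adjusted p = 7.85e-04), beside 0.33 for Pdhb, whereas Pdhx, the E3-binding protein, had 0.02. Dlat (0.03) and Dld (0.09) did not pass in IR -SG against Ctr. Pdpr, which regulates the phosphatase, rose in -SG (0.28, adjusted p = 0.00736) and in IR -SG (0.49, adjusted p = 5.8e-05). Of the genes that make or attach the lipoyl cofactor, Lipt2 fell in -SG (-0.68) and in IR -SG (-0.80), Lipt1 in -SG (-0.31) and in IR -SG (-0.58), and Lias in IR (-0.22) and in IR -SG (-0.30). Pdp2 was the only one of these 8 genes past the threshold for the interaction (0.31, adjusted p = 0.0364). The interaction called 11.4% of all tested genes.

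Of the 11 other pyruvate-fate genes tested, 6 rose and 4 fell in IR -SG, 4 rose and 4 fell in -SG, and 4 rose and 5 fell in IR against Ctr. The shares called over all tested genes were 69.7%, 58.6% and 53.7% in the same order. Gpt2, the mitochondrial alanine aminotransferase, moved like Pck2, with 1.61 in IR -SG, 1.82 in -SG and -0.34 in IR, all past the threshold. Pkm, a pyruvate kinase gene, fell in all 3 (-0.43 in IR -SG, -0.28 in -SG and -0.18 in IR), as did Slc16a1, a carrier gene for lactate and pyruvate (-0.88, -0.57 and -0.29 in the same order). Ldha, the main lactate dehydrogenase gene, fell in IR -SG (-0.45), in -SG (-0.14) and in IR (-0.35). Ldhb rose in IR -SG (0.74) and IR (0.90) but not in -SG (0.10, adjusted p = 0.45), where its counts were 99.8, 107 and 133, against 98.8, 101 and 116 in Ctr libraries. Of the malic enzymes, which release pyruvate from malate, Me3 rose in all 3 groups (1.44, 1.20 and 0.45 in that order), as did Me1 (0.48, 0.34 and 0.11), and Me2 fell in all 3 (-0.26, -0.18 and -0.14). Gpt and Ldhd did not pass in -SG or IR, and Ldhd rose in IR -SG (0.57, adjusted p = 0.00287). Bsg, the chaperone of the lactate carriers, rose in IR -SG (0.16), -SG (0.23) and IR (0.10).

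**Figure D5:**
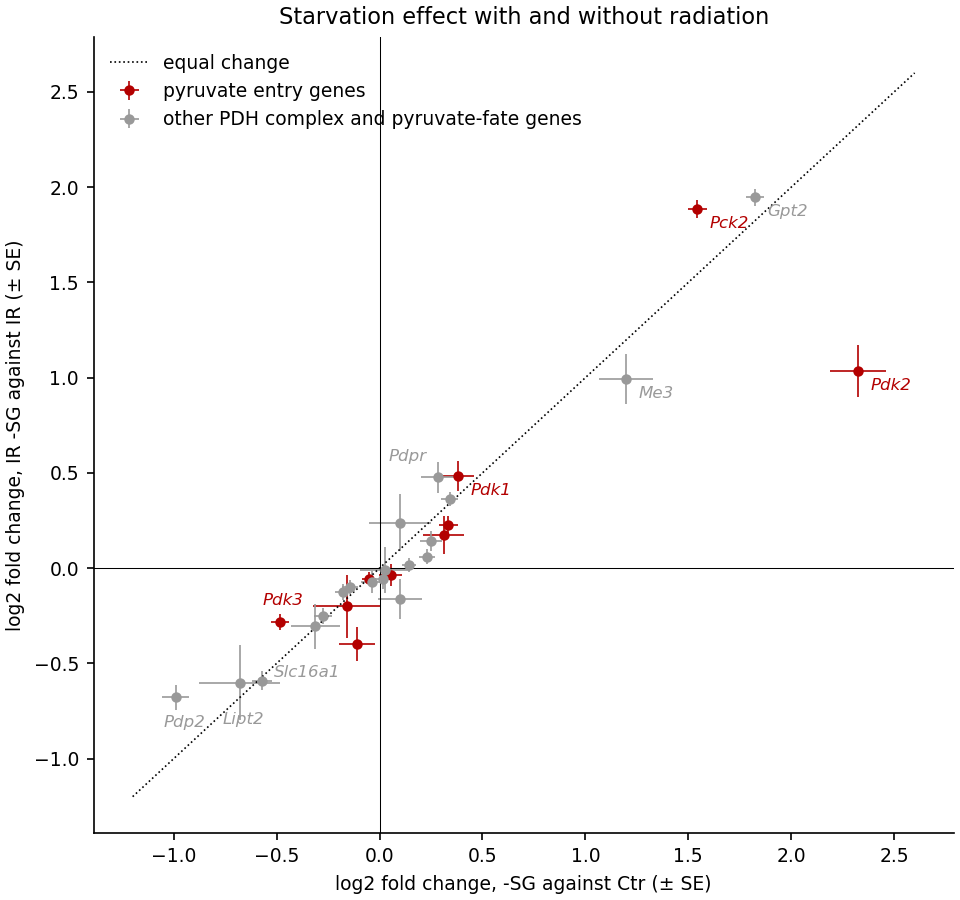
The log2 fold change under starvation in irradiated cells (vertical axis, IR -SG against IR) against that in unirradiated cells (horizontal axis, -SG against Ctr), with SE bars, for the 10 pyruvate entry genes and 19 other PDH complex and pyruvate-fate genes. Points on the dotted line changed equally, Pdk2 lies below it (1.03 against 2.32), and Pck2 lies above it (1.89 against 1.54).

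Lists from related pathways are given as a setting for these values. Of 18 TCA cycle enzymes, which use the acetyl-CoA and oxaloacetate made here, 0 rose and 15 fell in IR -SG, 2 rose and 13 fell in -SG, and 0 rose and 5 fell in IR against Ctr, with medians of -0.20, -0.17 and -0.06. Of 9 genes of the sister keto acid dehydrogenases, 2 rose and 6 fell in IR -SG, 2 rose and 5 fell in -SG, and 2 rose and 2 fell in IR. Of 22 ATF4 targets, which do not include Pck2, 19 rose and 1 fell in IR -SG, 22 rose in -SG, and 6 rose and 13 fell in IR, with medians of 1.03, 1.40 and -0.27. Of the same 22, 2 rose and 16 fell in IR -SG against -SG. Of 20 hypoxia-inducible genes, which do not include Pdk1, 9 rose and 8 fell in IR -SG, 8 rose and 6 fell in -SG, and 3 rose and 12 fell in IR. Over all tested genes 37.2% rose and 32.5% fell in IR -SG, 30% and 28.6% in -SG, and 28.9% and 24.9% in IR. In IR -SG against -SG 23.8% rose and 19.3% fell.

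Genes averaging 100 normalized counts or more and with the smallest root mean square difference from a member over the 3 log2 fold changes against Ctr, each from 12 libraries, were listed for the 4 members that changed by at least 0.5. For Pck2 these were Slc7a11, a cystine transporter gene (root mean square difference 0.16), Ciart (0.21) and Psph, the last enzyme of serine synthesis (0.21). For Pdk2 they were Mal (0.12), Krt17 (0.14) and Gadd45a (0.19), a gene induced by DNA damage and stress. Against Ctr, Mal, Krt17 and Gadd45a had 2.51, 2.31 and 2.33 in IR -SG and 2.43, 2.42 and 2.30 in -SG. In IR they had 1.63, 1.58 and 1.16, and their interactions are not given here. Pdk3 had closer neighbours in Xylb, Sephs2 and Bsn (0.0084 to 0.018), and Pcx in Tprn, Maged2 and Oaz2 (0.018 to 0.040). These likenesses are measured on the same libraries and describe levels only.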

How the data were processed

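Total RNA was sequenced from 12 libraries of 4T1 cells, made with a stranded, ribosomal RNA-depleted kit. The submitters' notes name FastQC, HISAT2, TopHat, featureCounts and DESeq2 (in R 3.3.1) with the GRCm38 build. Versions of these tools, and whether reads were counted by strand, are not stated. The deposited table holds a signal, namely normalized counts, which the authors made by dividing the reads of a gene by 1 size factor per library. Dividing by the value of 1 read gave whole reads for 100% of values (tolerance 0.001). Gene positions are from GENCODE M21. After adding 1 and taking log2, values were fitted with limma 3.58.1 in R 4.3.3 (intensity trend, all 4 groups together, 8 residual degrees of freedom). Only protein-coding genes reaching 10 normalized counts in 3 or more libraries entered, and p-values were adjusted by Benjamini-Hochberg over these 11663 genes. The procedure was tested on simulated data.

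Whole reads were tested with edgeR 4.0.16 and DESeq2 1.42.0 as alternatives. Others were pseudocounts of 0.5 and 8, other filters, scalings and gene sets, a GC correction, no intensity trend, a block on the replicate number, fewer groups, leaving out each library, and Ctr replicate 2 as the only Ctr library, which was added after the data were seen. All 10 members were named whether or not they passed. Every tested gene of the lists of other PDH complex and pyruvate-fate genes could be named, as could the 3 most alike genes of members changed by a log2 of at least 0.5 against Ctr. The members and lists were chosen with earlier results of these data known. Levels were compared per kb of merged exon, or of the longest coding transcript. Pdp1 had no promoter in the RefSeq table. Libraries of 12540160 to 20066659 reads leave genes near 10 counts imprecise.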

Additional observations from a re-analysis of the deposited data

Results flagged for a closer look

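By the interaction test, the radiation effect differed between the media for 3 of the 10 members. It also differed for 1 of the 8 other PDH complex genes tested, and for 0 of the 11 other pyruvate-fate genes tested. Over all tested genes 11.4% were called. For Pdk2 the log2 fold change after radiation was 0.15 in starved and 1.44 in fed cells, a difference of -1.29. The difference was positive for Pck2 (0.34), Pdp2 (0.31) and Pdk3 (0.20), which fell after radiation in fed cells. The fall was smaller in starved cells for Pck2 (-0.27, against -0.61 in fed cells) and Pdk3 (-0.02, against -0.22). Mean counts of Pdp2 were 405 in IR -SG and 398 in -SG, against 650 in IR and 790 in Ctr. For Pdk3 the adjusted p of the interaction was 0.0484, and the call was lost in 20 of 28 alternatives, among them the replicate block (adjusted p = 0.0679). For Pdp2 it was 0.0364, and its values in the alternatives were not summarised, so how far this call depends on the processing is not given here.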

How the results depend on the processing

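Of 60 log2 fold changes of members over 6 comparisons, 32 passed the test, 25 of them in every alternative, and 0 of the 32 changed sign. Over all tested genes 69.7% were called in IR -SG, 58.6% in -SG and 53.7% in IR against Ctr. The shares were 43.1% in IR -SG against -SG, 57.1% in IR -SG against IR and 11.4% for the interaction. The 7 member calls that were lost in at least 1 alternative are given above with their values, and the cause was not tested. The 4 calls in IR -SG against -SG became 2 with libraries brought to one total, with only the 2 groups compared in the fit and with Ctr replicate 2 as the only Ctr library. Leaving out 1 library gave 2 to 4 there, 7 in IR -SG, 5 to 6 in -SG and 4 to 6 in IR against Ctr, 6 in IR -SG against IR and 2 to 4 for the interaction. Deviations from the group means were correlated between irradiated and unirradiated libraries. For the same replicate number the correlations were 0.025 to 0.068 in fed and -0.094 to 4.9e-05 in starved cells. For different numbers they were -0.044 to 0.0016 in fed and -0.072 to 0.15 in starved cells. Whether the numbers mark paired cultures cannot be told from these low values. With the replicate number as a block, 5 members passed in IR against Ctr, 3 in IR -SG against -SG and 2 for the interaction. Of all 11663 tested genes, that fit called 6026, 4637 and 985 in the same order. Of the 28 values that did not pass, 4 passed in at least 1 alternative (Mpc1 and Mpc2 in IR -SG against Ctr, Pdp1 in IR against Ctr, and the Pdp1 interaction), and 17 turned sign in at least 1. With one total, Pdha1 had 0.022 and Pdhb 0.016 in IR and Pdha1 0.0037 in IR -SG against -SG. Upper quartile scaling gave Pdha1 0.0036 in IR. Quantile normalization gave Pdha1 0.0046 in -SG, 0.030 in IR, 0.010 in IR -SG against Ctr and 0.0057 in IR -SG against -SG, Pdp1 -0.035 in IR, and interactions of 0.053 for Mpc1 and 0.013 for Pcx. With GC correction, with or without the block, Pdha1 had 0.036 and Pdhb 0.0064 in IR and Pdha1 0.0054 in IR -SG against -SG, and without the block Pdha1 had 0.0024 in IR -SG against Ctr. With Ctr replicate 2 alone, Mpc2 had -0.054 in -SG, -0.0010 in IR -SG against Ctr and 0.019 for the interaction, Pdha1 0.0042 in IR, and the interactions of Mpc1 and Pdk1 were 0.040 and -0.0014. Leaving out 1 library gave Mpc1 -0.19 to 0.032, Pdha1 -0.020 to 0.011 and Pdhb -0.036 to 0.016 in IR, Mpc1 -0.24 to 0.11, Pdha1 -0.036 to 0.012 and Pdk3 -0.052 to 0.025 in IR -SG against -SG, Mpc1 -0.33 to 0.018 in IR -SG against IR, and interactions of -0.17 to 0.17 for Mpc1 and -0.028 to 0.019 for Pdha1. A mean of at least 100 normalized counts removed Pdk2, which gave no value there. Low counts limit Pdk2 in Ctr, and reads that may be shared with a pseudogene, which was not tested, may limit Mpc1.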
